A study of Aedes aegypti with 33 samples.

Results

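The 100 genes with the highest share of counts in A20 cells given 10 μM heme were followed through all 33 libraries of the series. A share is the count of a gene divided by the total of its library, in percent. The 3 shares of each gene in the A20 libraries with 10 μM heme were averaged, and the 100 highest of 19712 genes were kept. Of these 19712 genes, 15867 had at least 1 count in those libraries. The choice therefore rests on the A20 libraries with 10 μM heme themselves, and both comparisons that involve them are given as descriptions, with no test.

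A20 and Aag2 are continuous cell lines of the mosquito Ae. aegypti. A20 cells were held for 72 h without FBS (fetal bovine serum) and with 10 μM heme, without FBS and without added heme (0 μM heme), or in regular growth media with 10% FBS. The A20 cells without FBS were in SF900 II and those with FBS in L-15, so that in A20 serum and basal medium changed together. Aag2 cells had the same 3 treatments for 72 h in Schneider’s medium and, in another experiment, in L-15 medium. A further experiment held Aag2 cells for 48 h in Schneider’s medium with FBS and 20 μM heme, or with FBS alone. Each of the 11 groups had 3 replicates. The labels call the Aag2 media without FBS deficient in both serum and heme, so that loss of serum and loss of its heme cannot be told apart when a group is set against FBS. The labels name another library kit for the 48 h libraries than for the rest, and levels were not tested across experiments.

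Transcripts of the translation machinery fill much of a growing cell's messenger RNA. Ribosomal proteins build the small (40S) and large (60S) subunits of the ribosome, and elongation factors bring aminoacyl-tRNA to it and move it along the message. Heme is the iron-bearing group of hemoglobin, which a female mosquito takes in with blood and which is toxic in excess. A share describes composition only: a gene can gain share because its own RNA rose or because other RNA fell, and fewer cells and less RNA per cell cannot be told apart in such libraries.

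Names were found for 39 of the 100 members. Of these, 38 came from an annotation that covers 1547 genes which the study had grouped by their behaviour in Schneider’s medium, so a named member is not an unbiased sample of all members. The other was rpS7 (AAEL009496), the reference gene of the study's RT-qPCR. Named members comprised 29 cytosolic ribosomal proteins, rpS7 among them and 16 of them of the 40S subunit, out of 34 named in all. The other 10 were elongation factor 1-alpha (AAEL017096), a further elongation factor (AAEL004500), elongation factor 1 gamma (AAEL011288), actin (AAEL011197), tubulin alpha (AAEL006642), the ribosome-bound scaffold protein Rack1 (AAEL013069), a DEAD box RNA helicase (AAEL013359), the mitochondrial ADP,ATP carrier (AAEL004855), the lysosomal protease cathepsin L (AAEL002833) and a nucleoside-diphosphate kinase (AAEL012359), an enzyme that passes phosphate between nucleotides. No named member was among the 2 annotated genes of heme and iron, the 8 chaperones or the 2 histones. Genes of these kinds among the unnamed members would not be seen. The other 61 members are given by identifier only. Marker genes of other cell types were too few in the annotation to be scored, so the identity of the lines was not checked.

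The primers for rpS7 are shown because this member served as the yardstick for other transcripts in the study's RT-qPCR. That assay is described for midguts and for knockdown in Aag2 cells and adult females, and not for A20 cells. The primers are written 5′ to 3′, with the last 5 bases at the 3′ end in capitals.
rpS7 forward: accgccgtctacgaTGCCA
rpS7 reverse: atggtggtctgctggTTCTT

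The members held 50.5%, 56.4% and 53.9% of all counts in the A20 libraries with 10 μM heme, against 24.4%, 23.2% and 22.5% with 0 μM heme and 30.2%, 30.5% and 29.8% with FBS. Every library with 10 μM heme thus lay above every other A20 library, as the choice of the members favours. The ratio of the mean shares was 2.29 over 0 μM heme and 1.78 over FBS. In Aag2 libraries the same 100 genes held 16.9% to 17.1% with 10 μM heme, 19.4% to 19.6% with 0 μM heme and 19.6% to 19.7% with FBS in Schneider’s medium. In L-15 medium they held 15.5% to 16.0% with 10 μM heme, 16.6% to 16.9% with 0 μM heme and 22.1% to 23.4% with FBS. After 48 h they held 21.1% to 21.7% with 20 μM heme and FBS, against 19.9% to 20.0% with FBS alone. Both Aag2 experiments at 72 h thus had their lowest summed shares with 10 μM heme, with no overlap between 10 μM and 0 μM heme.

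**Figure D1:**
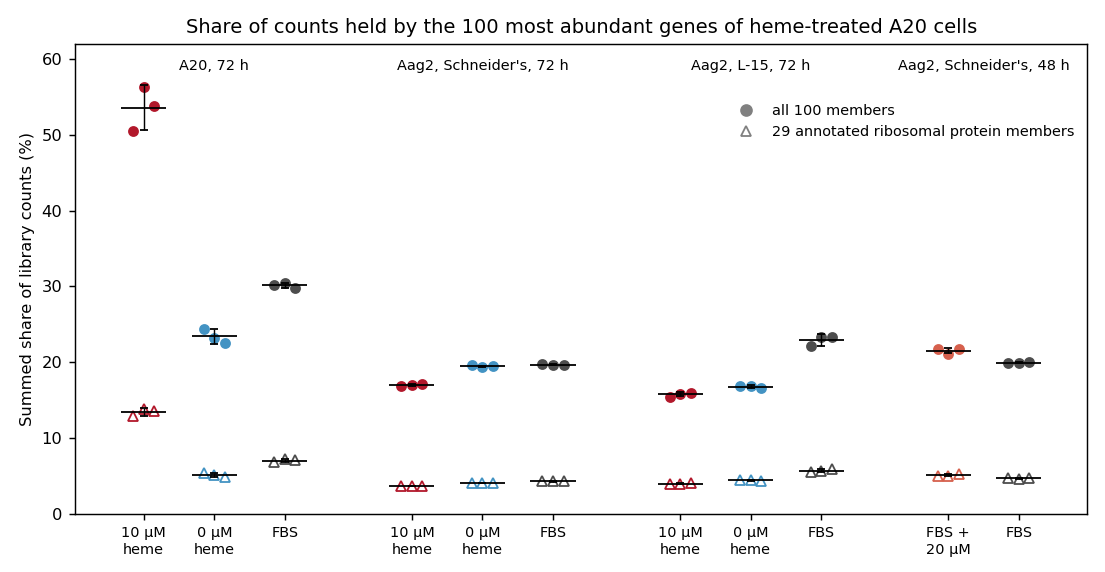
Summed share of library counts (%, y axis) of the 100 members (filled circles) and of the 29 annotated ribosomal proteins among them (open triangles) in each of the 33 libraries, by group (x axis), with horizontal lines for the mean and error bars for 1 SD (n = 3). The A20 libraries with 10 μM heme stand at 50.5% to 56.4%, above all others, which lie between 15.5% and 30.5%.

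Counts were concentrated on few genes in the heme-treated A20 cells whichever genes are ranked. The 100 most abundant genes of each library itself held 50.7% to 56.4% of its counts with 10 μM heme, against 29.1% to 30.2% with 0 μM heme and 34.6% to 35.6% with FBS. The number of genes that held the first 50% of counts was 78 to 97 with 10 μM heme, 340 to 361 with 0 μM heme and 246 to 262 with FBS. In the 24 Aag2 libraries it ran from 393 to 569. The A20 libraries held 23843591 to 27586128 counts, so depth differed little between these groups. TMM scaling factors, which adjust for such differences in composition, were 0.685 to 0.834 with 10 μM heme and 1.10 to 1.22 in the other A20 libraries.

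**Figure D2:**
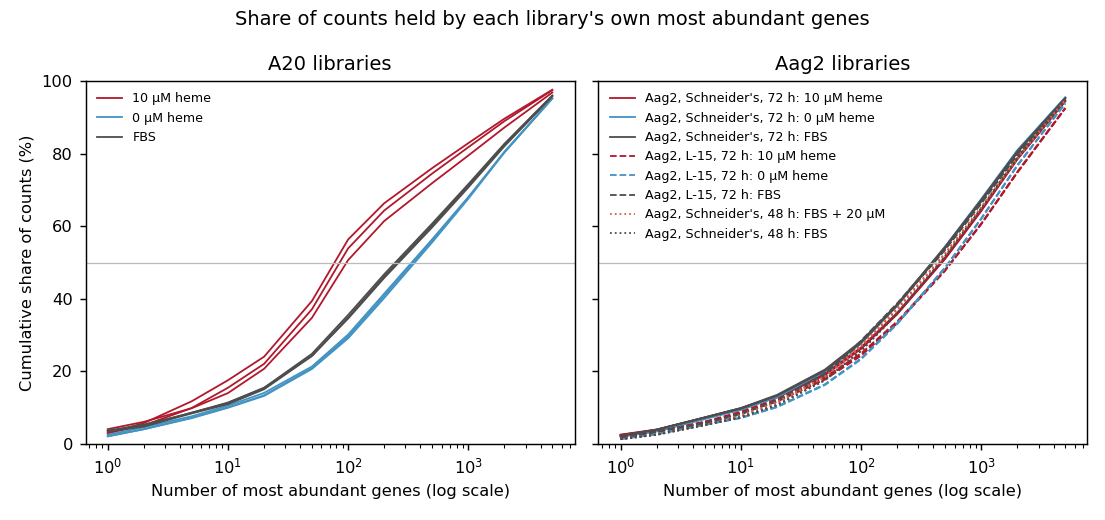
Cumulative share of counts (%, y axis) held by the most abundant genes of each library itself, against their number (x axis, log scale), with 1 line per library for A20 (left) and Aag2 (right). The grey line marks 50% of counts, which the A20 libraries with 10 μM heme reach at 78 to 97 genes and the other A20 libraries at 246 to 361 genes.

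Elongation factor 1-alpha, which carries aminoacyl-tRNA to the ribosome, was the most abundant member. It took 4.12%, 2.80% and 3.01% of counts with 10 μM heme, 2.58%, 2.16% and 2.12% with 0 μM heme and 3.73%, 3.63% and 3.50% with FBS in A20 cells. The heme-treated libraries thus lay above those with 0 μM heme and on both sides of those with FBS. RpS2 (AAEL010168), a protein of the small subunit, was the highest ribosomal protein, with 1.15%, 1.54% and 1.57% with 10 μM heme, 0.364%, 0.353% and 0.332% with 0 μM heme and 0.483%, 0.551% and 0.526% with FBS. Its mean share with 10 μM heme was 4.05 times that with 0 μM heme and 2.73 times that with FBS. All 29 annotated ribosomal proteins among the members had higher mean shares with 10 μM heme than in either other A20 group, as the choice favours. So had all 34 annotated ribosomal proteins, members or not. Of the 12249 A20 genes that passed the filter on low counts, 3155 were higher over 0 μM heme and 3638 over FBS. Log2 ratios of the 29 ran from 0.76 to 2.02 over 0 μM heme and from 0.23 to 1.54 over FBS. RpS29 (AAEL007824) of the small subunit, with a log2 ratio of 1.85 over 0 μM heme, and RpL30 (AAEL005220) of the large subunit, with 1.79, followed RpS2. At the other end stood L19 (AAEL024536) of the large subunit, which took 0.439%, 0.389% and 0.386% with 10 μM heme, 0.257%, 0.239% and 0.223% with 0 μM heme and 0.347%, 0.349% and 0.339% with FBS. RpS6 (AAEL000032) of the small subunit, the next lowest, had a log2 ratio of 0.98 over 0 μM heme and 0.35 over FBS. The summed share of the 29 was 12.9% to 13.9% with 10 μM heme, 4.82% to 5.34% with 0 μM heme and 6.81% to 7.16% with FBS.

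The reference gene rpS7, a protein of the small subunit, moved with the rest. Its share was 0.295%, 0.286% and 0.286% with 10 μM heme, 0.143%, 0.128% and 0.125% with 0 μM heme and 0.180%, 0.195% and 0.186% with FBS in A20 cells. The 3 A20 groups did not overlap for rpS7, and the ratio of mean shares was 2.19 over 0 μM heme and 1.55 over FBS. In the Aag2 libraries its share ranged from 0.115% to 0.173%.

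Over all members, the log2 ratio of mean shares between 10 μM and 0 μM heme had a median of 1.41 (quartiles 1.13 and 1.63), with 95 of 100 above 0 and 80 over 2-fold. Shares of 94 members lay above every 0 μM heme library in every 10 μM heme library and those of 5 below. Of the 12249 A20 genes that passed the filter on low counts, 16.3% lay above and 60.1% below, and nothing is read from the members' counts, since they were picked on these libraries. Against FBS the median was 0.92 (quartiles 0.70 and 1.20), with 96 above 0 and 40 over 2-fold, 91 above without overlap and 3 below, where 15.1% and 51.5% of all genes were. For all 12249 genes the medians were -0.88 and -0.56 on the same scale, with 3155 and 3638 genes above 0. The counts over 2-fold have no share of all genes beside them. TMM scaling moved the members' medians to 2.12 and 1.51. It moved those of all genes to -0.19 and 0.02, the second across 0. The size of every change in A20 cells, and the sign of smaller ones, therefore depends on the scaling.

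The other annotated lists, of members and non-members together, are given as medians of the log2 ratio of shares in A20 cells with 10 μM heme, over 0 μM heme and then over FBS. For the 20 translation factors, which start or extend protein chains on the ribosome, they were 0.28 and -0.14, and 11 of the 20 had a lower mean share with 10 μM heme than with FBS. The 10 genes of the respiratory chain and ATP synthase had 1.06 and 0.50, and the 5 mitochondrial ribosomal proteins, none of them a member, 1.12 and 0.77. The 8 chaperones, which help proteins fold, had 0.44 and 0.13. The 14 genes of the proteasome and ubiquitin system, which degrades proteins, had -0.55 and -0.62, and the 8 genes of the cytoskeleton -0.51 and -0.37. Lists of 2 genes each had 1.54 and 0.96 (antioxidant), 0.35 and 0.13 (histones), -0.04 and 0.48 (glycolysis), -1.78 and -0.56 (heme and iron) and -2.81 and -2.35 (extracellular matrix). After TMM scaling the translation factors had medians of 0.99 and 0.45. The proteasome and ubiquitin system had 0.15 and -0.04, and the cytoskeleton 0.20 and 0.22. Glycolysis had 0.69 and 1.09, heme and iron -1.07 and 0.03, and extracellular matrix -2.12 and -1.78. The other lists stayed above 0, so the sign of several medians depends on the scaling. All these values are a description, with no test.

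A small number of members had lower shares with 10 μM heme than in another A20 group. TMM scaling moved the members' median log2 ratio from 1.41 to 2.12 over 0 μM heme and from 0.92 to 1.51 over FBS. A fall in share that is smaller than this move may therefore not be a fall after scaling. AAEL022334, which has no name here, took 0.388%, 0.406% and 0.359% of counts with 10 μM heme, 1.15%, 1.44% and 1.42% with 0 μM heme and 0.147%, 0.104% and 0.0941% with FBS. Its heme-treated libraries thus stood between the other groups without overlap. AAEL001964, also unnamed, took 0.318%, 0.311% and 0.341% with 10 μM heme, 0.671%, 0.598% and 0.618% with 0 μM heme and 0.158%, 0.255% and 0.235% with FBS, in the same order of groups. Cathepsin L took 0.355%, 0.308% and 0.342% with 10 μM heme, 0.538%, 0.529% and 0.532% with 0 μM heme and 0.411%, 0.415% and 0.399% with FBS. Its shares were lowest with 10 μM heme, with log2 ratios of -0.67 over 0 μM heme and -0.29 over FBS. Both falls were smaller than the move by TMM scaling, so this order of the groups depends on the scaling. Actin had a mean share 0.70 times that with 0 μM heme and 1.08 times that with FBS. The elongation factor AAEL004500 had 0.77 times the mean share with 0 μM heme and 0.62 times that with FBS, where elongation factor 1-alpha had 1.45 and 0.91 times. AAEL022104, with no name, stood at 1.33 and 0.87 times. Against 0 μM heme, the falls of actin (log2 ratio -0.51) and AAEL004500 (-0.37) were also smaller than the move by TMM scaling.

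The widest ratios belonged to 3 unnamed genes that ranked 2, 3 and 8 with 10 μM heme. AAEL019860, placed by the annotation on chromosome 3 of AaegL5 from 135668411 to 136653404, took 0.988%, 3.00% and 2.15% of counts with 10 μM heme, against 0.0587%, 0.0706% and 0.121% with 0 μM heme and 0.0686%, 0.0928% and 0.109% with FBS. AAEL027243 took 0.779%, 2.29% and 1.71% with 10 μM heme, and 0.0199% to 0.0604% in the other A20 libraries. AAEL023799 took 0.423%, 2.06% and 1.32% with 10 μM heme, and 0.0123% to 0.0364% in the other A20 libraries. The ratios of mean shares over 0 μM heme were 24.55, 42.52 and 55.94 in this order. Replicate 1 with 10 μM heme was lowest and replicate 2 highest for each of them.

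These 3 genes, picked out after their values were seen, held 2.19%, 7.35% and 5.18% of counts with 10 μM heme and thereby most of the spread among those replicates. The other 97 members summed to 48.3%, 49.0% and 48.7% there, against 24.4%, 23.1% and 22.3% with 0 μM heme and 30.1%, 30.3% and 29.7% with FBS. Without the 3 genes the ratio of summed shares was 2.09 over 0 μM heme and 1.62 over FBS. They were not rare in Aag2 cells, where AAEL019860 took 0.220% to 0.654% of counts in all 24 libraries and AAEL023799 0.110% to 0.374%.

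Other members varied between replicates as well. The coefficient of variation of the share was above 20% for 10 members with 10 μM heme, 6 with 0 μM heme and 8 with FBS in A20 cells, with medians of 4.84%, 6.90% and 3.68% over the 100 members. AAEL018668 took 0.225%, 0.263% and 0.259% with 10 μM heme, but 0.0554%, 0.0321% and 0.00018% with 0 μM heme and 0.111%, 0.00033% and 0.00718% with FBS. Its ratio of 8.52 over 0 μM heme therefore rests on libraries that differ by over 100-fold among themselves. Elongation factor 1-alpha was highest in replicate 1 with 10 μM heme and RpS2 lowest in it. The part of this replicate in the spread was not tested.

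The lists of the 100 most abundant genes overlapped between groups. Of the members, 74 stood in the list of A20 cells with FBS and 60 in that with 0 μM heme. In Aag2 groups, 50 to 68 did. In all 11 groups, 35 members were in the list, among them 10 annotated ribosomal proteins. Of these 35, elongation factor 1-alpha, AAEL019403, AAEL017516, RpS2 and AAEL000987 led in A20 cells with heme. AAEL019403, for example, took 2.02%, 1.30% and 1.37% with 10 μM heme, 0.966%, 0.739% and 0.722% with 0 μM heme and 1.66%, 1.38% and 1.34% with FBS. AAEL017516 took 1.53%, 1.45% and 1.51% with 10 μM heme, 0.817%, 0.768% and 0.692% with 0 μM heme and 0.986%, 1.20% and 1.18% with FBS. The groups of AAEL017516 did not overlap, while those of AAEL019403 with 10 μM heme and with FBS did. AAEL000987 and AAEL004325, ranked 9 and 10, had mean shares with 10 μM heme 2.72 and 1.74 times those with 0 μM heme and 1.81 and 1.36 times those with FBS.

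In no other group's list were 18 members. They comprised RpL22 (AAEL007771), RpL30 (AAEL005220), RpS28 (AAEL006860), RpS29 (AAEL007824), a gene labelled RpL7a but described as L35 (AAEL005629), RpS21 (AAEL004503), the nucleoside-diphosphate kinase and 11 unnamed genes. Of these 11, AAEL018669, AAEL017198, AAEL013272, AAEL010299, AAEL009653, AAEL002047 and AAEL014292 were the most abundant, with mean shares of 0.301% to 0.465% with 10 μM heme. AAEL017198 took 0.360%, 0.458% and 0.424% with 10 μM heme, 0.115%, 0.109% and 0.0989% with 0 μM heme and 0.141%, 0.153% and 0.151% with FBS, with no overlap between the groups. RpL30, of the large subunit, took 0.306%, 0.359% and 0.346% with 10 μM heme, 0.0984%, 0.0974% and 0.0961% with 0 μM heme and 0.137%, 0.133% and 0.134% with FBS. The nucleoside-diphosphate kinase took 0.182%, 0.338% and 0.330% with 10 μM heme, 0.0686%, 0.0750% and 0.0703% with 0 μM heme and 0.106%, 0.111% and 0.114% with FBS. At the limit of the choice, AAEL009185 and AAEL004151 ranked 99 and 100 with mean shares of 0.228% and 0.225%, and the next 2 genes, AAEL012740 and the DEAD box helicase AAEL010787, had 0.221% and 0.215%.

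The share of 5 members stayed under 0.01% in every Aag2 library. AAEL018662 ranked 7 and took 1.07%, 1.66% and 1.37% with 10 μM heme, 0.283%, 0.301% and 0.381% with 0 μM heme and 0.887%, 0.430% and 0.480% with FBS in A20 cells, but at most 0.00432% in Aag2 cells. AAEL018669, AAEL018668, AAEL018685 and AAEL001964 were the others. Whether the lines differ in these genes or in how reads map to them was not tested. The counts of 2 pairs of members were nearly equal in all 33 libraries. AAEL013536, annotated as a fusion of ubiquitin and ribosomal protein L40, and AAEL013533 start at the same base of chromosome 2 (246241294) and differed by at most 0.00304%, and AAEL013277 and AAEL022140 by at most 3.34%. Such pairs may hold the same reads, so the 100 members stand for fewer separate measurements.

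The comparison of 0 μM heme with FBS in A20 cells was not used to choose the members and was tested, as were 7 comparisons in Aag2 cells. All used edgeR's quasi-likelihood test over all genes that passed the filter, with TMM scaling, Benjamini-Hochberg adjustment and an FDR of 0.0001. SE stands for standard error, and scaled counts are counts per TMM-scaled library size. With 0 μM heme, 93 of 100 members had a lower fitted level than with FBS, with a median log2 fold change of -0.58, against -0.01 over all 12249 genes. Scaled counts of 90 members lay below FBS in every library and those of 5 above, where 28.9% and 28.2% of all genes did. The quasi-likelihood test called 0 of the 100 members lower and 1 higher, against 0.0327% and 0.4% of all genes (0.433% in either direction). By the exact test 13 were called lower and 2 higher, where 2.94% and 6.47% of all genes were, and by DESeq2 59 and 2, where 6.15% and 6.4% were. With an unadjusted p under 0.05 there were 93 members, where 41.5% of all genes had one. At an FDR of 0.05, 84 were called lower and 4 higher, where 14.5% and 15% of all genes were. Replicate 1 with 10 μM heme belongs to neither group but shares the estimate of the spread. Without it 18 members were called lower at an FDR of 0.0001, a count with no share of all genes beside it. In a fit of only the 2 groups compared, with no library of 10 μM heme, 0 were called lower and 1 higher, where 0.175% and 1.42% of all genes were.

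The member called was AAEL022334, with a log2 fold change of 3.43 ± 0.19 (SE, FDR 1.37e-05) for 0 μM heme over FBS. It stayed between 3.30 and 3.62 when single libraries were left out, and its FDR was 0.000146 to 0.000306 without any of FBS replicates 2 and 3 and 0 μM heme replicates 2 and 3. RpS2 had a log2 fold change of -0.69 ± 0.17 (FDR 0.0145) and rpS7 one of -0.62 ± 0.10 (FDR 0.0023), short of the threshold. Of the 29 annotated ribosomal proteins, 0 were called at an FDR of 0.0001, and their fitted log2 fold changes all lay between -0.74 and -0.33.

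**Figure D3:**
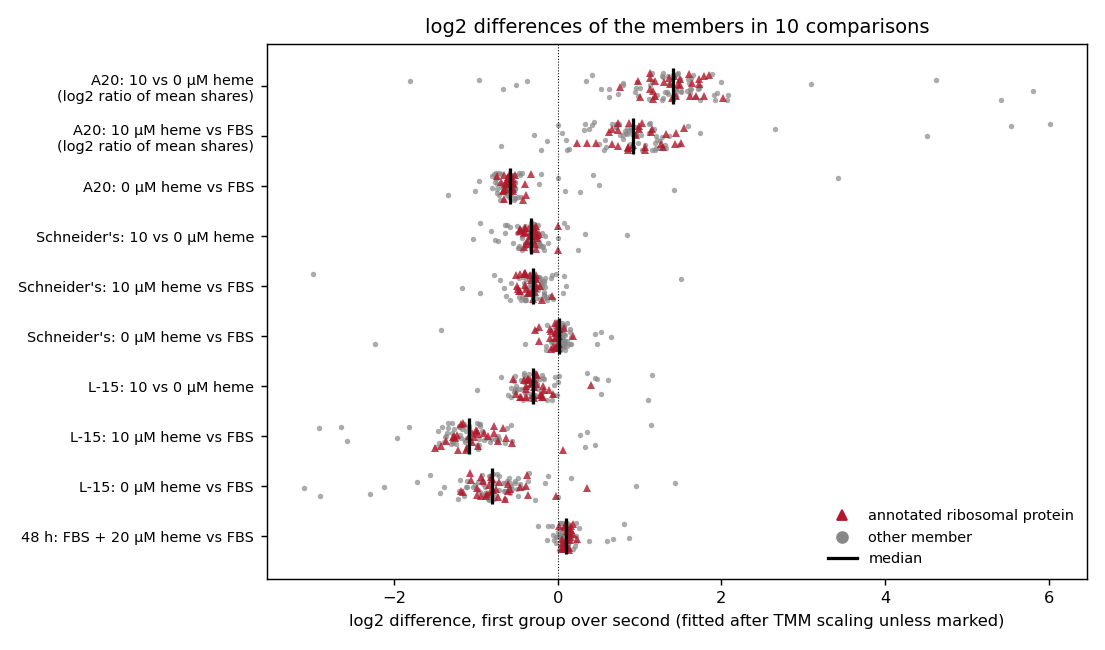
log2 differences of the members (x axis) in 10 comparisons (y axis), each the first group over the second, with triangles for the annotated ribosomal proteins, circles for other members and a vertical bar for the median. The upper 2 rows are log2 ratios of mean shares in the libraries that chose the members (medians 1.41 and 0.92), and the others are fitted after TMM scaling, with medians of -1.08 to 0.10.

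In Schneider’s medium, most members were lower in Aag2 cells with 10 μM heme than with 0 μM heme. Of 99 tested, 75 were called lower and 0 higher, against 9.55% and 7.53% of 13171 genes. Scaled counts of 89 members lay below in every library and those of 3 above, where 28.4% and 30.6% of all genes did. The untested member, AAEL001964, had next to no counts in Aag2 cells. The median log2 fold change was -0.32, and that of all genes 0.03. Among the annotated ribosomal proteins 25 of 29 were called lower, with a median of -0.32, though all but rpS7 carry names because the study grouped them by their behaviour in these same libraries. Of the 60 unnamed members tested, 42 were called lower. The exact test called 1 member higher and 78 lower, where 11.5% and 12.3% of all genes were, and DESeq2 1 and 86, where 12% and 15.7% were. An unadjusted p under 0.05 was found for 92 members, 90 of them lower, and for 55.9% of all genes. The count depended on the scaling: without TMM factors 34 were called lower, where 5.35% of all genes were. The median was then -0.18, against 0.18 for all genes.

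AAEL009185 fell most among those called, with 0.0435%, 0.0480% and 0.0501% of counts with 10 μM heme and 0.0879%, 0.0873% and 0.0861% with 0 μM heme. Its log2 fold change was -1.03 ± 0.05 (SE, FDR 6.09e-08), and the groups did not overlap. AAEL023799 followed, with 0.228%, 0.193% and 0.180% against 0.374%, 0.340% and 0.335%, and a log2 fold change of -0.95 ± 0.07 (FDR 8.42e-07). AAEL027243 had one of -0.82 ± 0.11 (FDR 8.85e-05), and without any one of the 9 libraries its FDR was 0.000152 to 0.000374. Elongation factor 1-alpha fell by 0.26 (SE 0.03, FDR 8.8e-06), elongation factor 1 gamma by 0.65 (SE 0.03, FDR 1.24e-08) and rpS7 by 0.27 (SE 0.03, FDR 5.65e-06), all on the log2 scale. RpS2 had -0.23 (FDR 0.000358) and 40S ribosomal protein S27 (AAEL022286) 0.00 (FDR 0.965), neither past the threshold.

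Against FBS, which shares its 10 μM heme libraries with the comparison above, 63 of 99 members were called lower with 10 μM heme and 1 higher in Schneider’s medium. Of all genes 7.47% and 6.33% were. Scaled counts of 88 members lay below FBS without overlap and those of 2 above, where 26.4% and 27.2% of all genes did. The median was -0.30, against 0.01 over all genes. Without TMM factors 36 were called lower, where 4.68% of all genes were, and in a fit of only these 2 groups 38, where 4.74% were. AAEL023799 fell by 0.95 (SE 0.07, FDR 9.78e-07), and AAEL019860 by 0.70 (SE 0.07, FDR 1.17e-05) on the log2 scale. AAEL019860 had an FDR of 0.000102 without FBS replicate 2. Elongation factor 1 gamma, a subunit of the complex that recharges elongation factor 1-alpha, fell by 0.65 (SE 0.03, FDR 1.39e-08). AAEL022334 was the member called higher: it took 0.0822%, 0.0896% and 0.0992% with 10 μM heme and 0.0294%, 0.0300% and 0.0295% with FBS, a log2 fold change of 1.50 ± 0.14 (FDR 6.7e-06).

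In Schneider’s medium with 0 μM heme, 2 of 99 members were called higher than with FBS and 1 lower, a share near that of all genes, of which 1.46% were higher and 1.04% lower (2.5% in either direction). The median was 0.02. At an FDR of 0.05, 15 were called higher and 5 lower, where 11.5% and 10.4% of all genes were, and 39 members had an unadjusted p under 0.05, where 33.8% of all genes did. Scaled counts of 32 members lay above FBS without overlap and those of 12 below, where 19.8% and 18.9% of all genes did. Those called higher were tubulin alpha and actin, proteins of the cytoskeleton. Of the 8 annotated genes of the cytoskeleton, 2 were called higher and 1 lower. Tubulin alpha took 0.377%, 0.359% and 0.365% with 0 μM heme and 0.264%, 0.265% and 0.253% with FBS, a log2 fold change of 0.53 ± 0.03 (SE, FDR 1.78e-06). Actin took 0.766%, 0.742% and 0.767% with 0 μM heme and 0.558%, 0.559% and 0.565% with FBS, a log2 fold change of 0.47 ± 0.03 (FDR 1.28e-06). The S27 protein fell by 0.28 (SE 0.03, FDR 3.32e-05) on the log2 scale, with an FDR of 0.000160 to 0.000426 without any one of the 6 libraries compared. DESeq2 called 7 members higher and 3 lower, where 6.26% and 4.25% of all genes were.

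In L-15 medium, 34 of 99 members were called lower with 10 μM heme than with 0 μM heme and 1 higher, against 9.87% and 8.13% of 13990 genes. Scaled counts of 82 members lay below 0 μM heme without overlap and those of 6 above, where 32.9% and 33.7% of all genes did. The median was -0.30, against 0.02 over all genes. The count was less settled than the median, which stayed between -0.33 and -0.30 when single libraries were left out. Members called, in either direction, numbered 16, 15 and 23 without 0 μM heme replicates 1, 2 and 3 and 23, 17 and 18 without 10 μM heme replicates 1, 2 and 3. They numbered 62 without FBS replicate 1, which is in neither group. These counts with single libraries left out have no share of all genes beside them. DESeq2 called 70 lower, where 18.6% of all genes were, and the exact test 55, where 15.5% were. Without TMM factors 13 were called lower, where 5.86% of all genes were.

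AAEL019417 took 0.00962%, 0.00918% and 0.0103% with 10 μM heme and 0.0185%, 0.0175% and 0.0163% with 0 μM heme in L-15 medium, a log2 fold change of -0.99 ± 0.09 (SE, FDR 5.27e-06). AAEL015006, with no name, fell by 0.61 (SE 0.05, FDR 8.85e-07) and the DEAD box RNA helicase (AAEL013359), of a family that unwinds RNA, by 0.57 (SE 0.05, FDR 5.38e-06). RpL30 was the member called higher, with 0.0770%, 0.0861% and 0.0830% with 10 μM heme and 0.0570%, 0.0556% and 0.0561% with 0 μM heme. Its log2 fold change was 0.40 ± 0.05 (FDR 6.1e-05). Its FDR was 0.000144 to 0.000710 without any of FBS replicate 2, 10 μM heme replicates 2 and 3 and the 3 libraries with 0 μM heme. AAEL019860, AAEL027243 and AAEL023799 had higher means with 10 μM heme, with log2 fold changes of 0.45, 0.35 and 0.61 and an FDR of 0.101, 0.266 and 0.0438, none past the threshold.

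Both groups without FBS in L-15 medium stood well below the group with FBS, which they share. With 10 μM heme 88 of 99 members were called lower than with FBS and 1 higher, against 18.2% and 15.5% of all genes. With 0 μM heme 81 were called lower and 3 higher, against 13.1% and 10.8%. Scaled counts of 89 members lay below FBS without overlap in either comparison, where 33.3% of all genes did with 10 μM heme and 30.6% with 0 μM heme. Those of 1 and 3 members lay above, where 38.0% and 31.3% of all genes did. The median log2 fold changes were -1.08 and -0.80, against 0.06 and 0.02 over all genes. Without TMM factors they were -0.69 and -0.56, against 0.45 and 0.27 over all genes. In these fits 79 and 64 members were called lower, where 9.3% and 7.48% of all genes were. Among the annotated ribosomal proteins 28 of 29 were called lower with 10 μM heme and 26 with 0 μM heme. Of the 20 annotated translation factors, 3 of them members, 14 were called lower and 2 higher with 10 μM heme, and 11 and 4 with 0 μM heme. All 10 annotated genes of the respiratory chain and ATP synthesis, of which the ADP,ATP carrier is a member, were called lower with 10 μM heme and with 0 μM heme.

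AAEL009185 fell most among those called, with 0.0116%, 0.0120% and 0.0121% with 10 μM heme, 0.0109%, 0.0111% and 0.0106% with 0 μM heme and 0.0701%, 0.0674% and 0.0685% with FBS. Its log2 fold changes over FBS were -2.92 ± 0.04 (SE, FDR 4e-12) with 10 μM heme and -2.91 ± 0.04 (FDR 6.01e-12) with 0 μM heme. The nucleoside-diphosphate kinase took 0.0181%, 0.0190% and 0.0192% with 10 μM heme, 0.0243%, 0.0253% and 0.0238% with 0 μM heme and 0.0745%, 0.0884% and 0.106% with FBS. It fell by 2.65 (SE 0.10, FDR 1.13e-09) with 10 μM heme and by 2.12 (SE 0.10, FDR 1e-08) with 0 μM heme. AAEL014583, with no name, fell by 1.96 with 10 μM heme (SE 0.05, FDR 6.6e-11), and elongation factor 1 gamma by 1.57 with 0 μM heme (SE 0.05, FDR 6.74e-10).

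Cathepsin L went the other way in L-15 medium, with 0.270%, 0.261% and 0.271% with 10 μM heme, 0.300%, 0.292% and 0.290% with 0 μM heme and 0.0839%, 0.0948% and 0.0979% with FBS. Its log2 fold changes over FBS were 1.15 ± 0.05 (SE, FDR 5.61e-09) with 10 μM heme and 1.43 ± 0.05 (FDR 2.05e-09) with 0 μM heme. With 0 μM heme AAEL022334 rose by 0.96 (SE 0.13, FDR 5.19e-05) and S27 by 0.35 (SE 0.04, FDR 9.12e-06). The first had an FDR of 0.000121 to 0.000376 when any of 7 of the 9 libraries was left out, the exceptions being 0 μM heme replicate 1 and 10 μM heme replicate 2. The second had an FDR of 0.000157 to 0.000210 without 0 μM heme replicate 1 or 2.

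**Figure D4:**
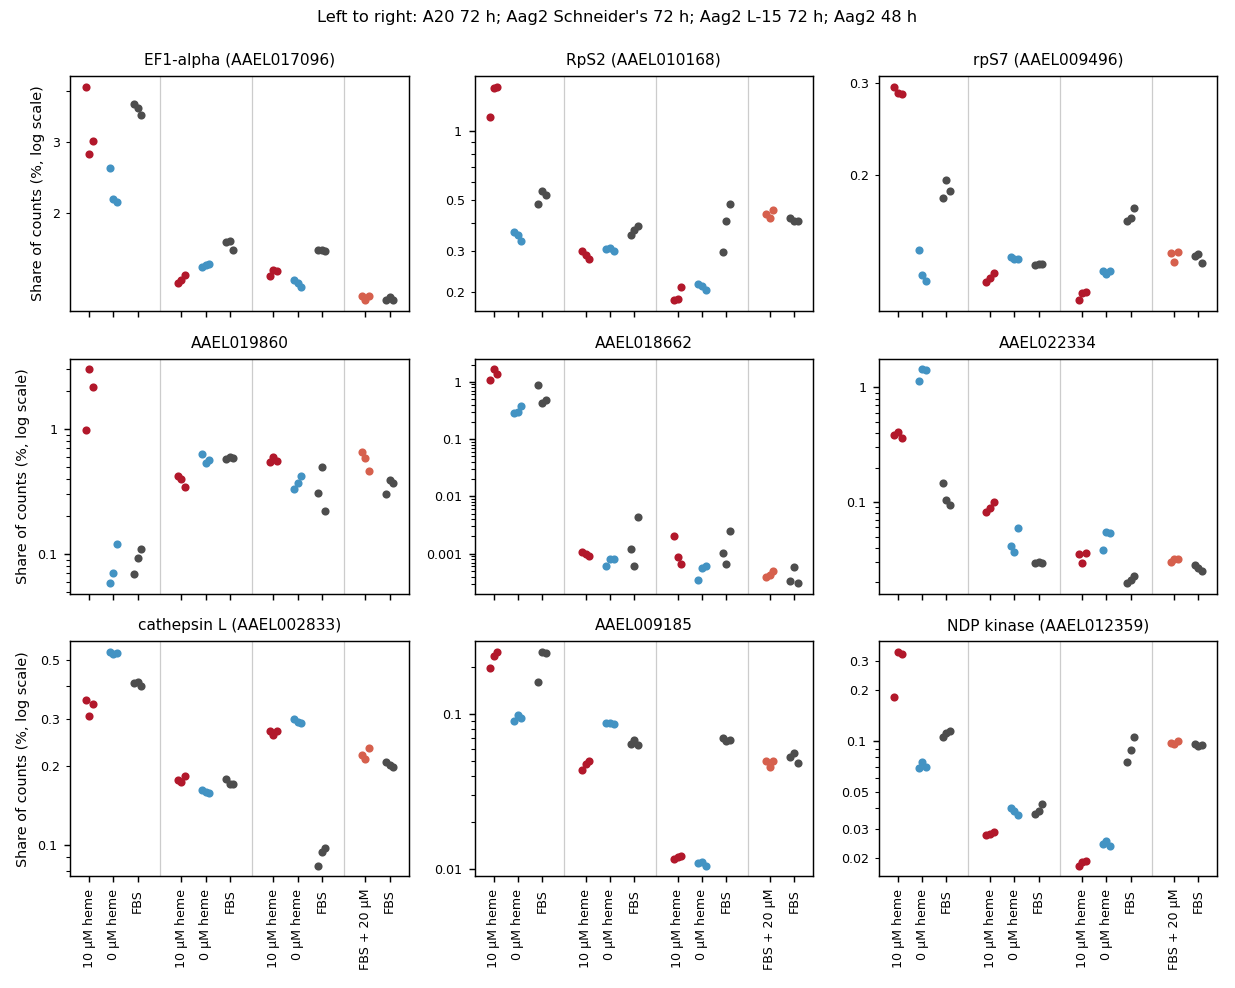
Share of counts (%, y axis, log scale, own range per panel) of 9 members in each of the 33 libraries, by group (x axis), with grey lines between the 4 experiments. RpS2 and rpS7 stand highest in A20 cells with 10 μM heme, AAEL018662 is near 0 in all Aag2 libraries, and AAEL022334 is highest in A20 cells with 0 μM heme.

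After 48 h with FBS, the quasi-likelihood test called 0 of 99 members higher and 0 lower with added heme of 20 μM than with FBS alone, against 0.583% and 0.183% of 12007 genes. The exact test called 4 higher, where 2.54% of all genes were, and DESeq2 6, where 3.43% were, with 0 lower by both. An unadjusted p under 0.05 was found for 64 members and for 35.0% of all genes. The median log2 fold change was 0.10, against 0.01 over all genes, and 91 members had a fitted value above 0. Scaled counts of 65 members lay above FBS alone in every library and those of 3 below, where 20.4% and 20.1% of all genes did. At an FDR of 0.05, 48 members were called higher and 1 lower, where 10.2% and 12.1% of all genes were. AAEL027243 took 0.526%, 0.416% and 0.363% with 20 μM heme and 0.201%, 0.272% and 0.238% with FBS alone, a log2 fold change of 0.87 ± 0.14 (SE, FDR 0.00345) that did not pass the threshold.

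Whether the change from 0 μM to 10 μM heme differed between media was tested for Aag2 cells as an interaction, L-15 minus Schneider’s, in 1 fit of the 18 libraries at 72 h. Medium and experiment cannot be told apart here. Of 99 members 3 had a higher and 2 a lower log2 fold change in L-15 medium past the threshold, against 3.23% and 6.64% of 14332 genes. The median difference was -0.01 over the members and -0.04 over all genes. The largest fitted difference among the members was that of AAEL023799, at 1.55 (SE 0.28, FDR 0.000292), which did not pass the threshold. The members called numbered 3 without Schneider’s 0 μM heme replicate 1, 2 or 3, without Schneider’s 10 μM heme replicate 2, without L-15 0 μM heme replicate 1 and without L-15 10 μM heme replicate 3. They numbered 11 and 9 without L-15 FBS replicates 1 and 2, which enter the contrast only through the spread. None of these counts has a share of all genes beside it.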

How the data were processed

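RNA of 33 libraries from cultured Ae. aegypti cells was sequenced by the study. The authors aligned reads to AaegL5 with HISAT2 2.1.0, used SAMtools to drop alignments of mapping quality below 10, and counted reads on transcripts with bedtools 2.19.1, as the submitters' processing notes and the methods give it. The use of strand is not given in the sources used here. The deposited values are whole-number counts for 19712 genes, not normalized and not per length. Libraries held 22860764 to 38002762 counts.

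Shares were taken of library totals. Tests used R 4.3.3 and edgeR 4.0.16 (filterByExpr, TMM, quasi-likelihood test over all libraries of an experiment, FDR 0.0001, where the study used the exact test), with the SE taken as the size of the log2 fold change over the square root of F. Alternatives were the exact test, DESeq2 1.42.0, RLE factors, library size alone, no filter, a replicate block, only the 2 groups, an FDR of 0.05 and each library left out. The summed share without 3 genes and with equal pairs taken once was added after the data were seen. Figures were drawn with matplotlib 3.10.9, and the fits were tested on simulated data.

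The members and gene lists were chosen with earlier results of these data known. Genes are named by rule: the 10 most abundant, the 4 widest and 4 narrowest ratios in A20, the 3 most changed each way per test, 12 members in no other list of 100, 5 in all, the 2 ranks on each side of the limit and the interaction's 2 extremes each way. rpS7, AAEL013536, AAEL013533, AAEL013277, AAEL022140, AAEL018685, Rack1, L19, RpS6, RpS21 and the ADP,ATP carrier were named outside it after their values were seen. RefSeq gene tables matched 0 members. The study calls the replicates biological, and p-values measure the spread between those cultures.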

Additional observations from a re-analysis of the deposited data

Results flagged for a closer look

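For 5 members the change from 0 μM to 10 μM heme differed between L-15 and Schneider’s medium in the joint quasi-likelihood fit of edgeR. They were 5 of 99 tested, where 9.87% of all 14332 genes were called. The difference of AAEL009185, L-15 minus Schneider’s, was 1.01 on the log2 scale (SE 0.07, FDR 5.2e-09), with a log2 fold change of -0.01 in L-15 and -1.03 in Schneider’s medium. That of AAEL022334 was -1.54 (SE 0.21, FDR 1.58e-05), with -0.69 in L-15 and 0.85 in Schneider’s medium, the only one of the 5 with opposite signs. Both kept their call when any single library was left out.

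Actin (AAEL011197) differed by 0.36 (SE 0.04, FDR 5.31e-06), with -0.13 in L-15 and -0.50 in Schneider’s medium. Elongation factor 1 gamma (AAEL011288) differed by 0.38 (SE 0.06, FDR 5.46e-05), with -0.25 and -0.65, and its FDR was 0.000116 to 0.000274 under 11 of the 18 omissions of 1 library. The S27 protein (AAEL022286) differed by -0.29 (SE 0.04, FDR 4.49e-05), with -0.28 and 0.00, and its FDR was 0.000137 to 0.000247 under 9 of the 18 omissions.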

How the results depend on the processing

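Counts of called members are given in either direction. Those with single libraries left out have no share of all genes beside them. In the A20 comparison of 0 μM heme with FBS, the count of 1 became 15 by the exact test, 61 by DESeq2 and 88 at an FDR of 0.05. Of all genes 9.41%, 12.5% and 29.5% were called there. Single libraries left out gave 0 to 19. Without TMM factors, counts became 34 (from 75) for 10 μM against 0 μM heme and 38 (from 64) for 10 μM heme against FBS in Schneider’s medium, and 14 (from 35) for 10 μM against 0 μM heme in L-15. Of all genes 16.5%, 13.3% and 16.7% were called in these 3 fits. A fit of only the 2 groups gave 39 for 10 μM heme against FBS in Schneider’s medium and 62 for 10 μM against 0 μM heme in L-15, where 9.48% and 19.5% of all genes were called. For this L-15 comparison the exact test gave 56, DESeq2 71 and an FDR of 0.05 83, where 30.7%, 33.4% and 57.4% of all genes were called. Single libraries left out gave 15 to 62. For 0 μM heme against FBS in Schneider’s medium DESeq2 gave 10 and an FDR of 0.05 gave 20 (from 3), where 10.5% and 21.9% of all genes were called. At 48 h, where the count was 0, the exact test gave 4, DESeq2 6 and an FDR of 0.05 49. Of all genes 5.47%, 8.63% and 22.3% were called there. The interaction count of 5 became 19 by DESeq2 and 36 at an FDR of 0.05, where 18.8% and 34.7% of all genes were called, and 3 to 11 with single libraries left out. The cause was not tested where the construction does not give it.

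Median log2 fold changes without TMM factors were -0.47 in A20 (0 μM heme against FBS), then -0.18, -0.20 and -0.0193 in Schneider’s medium (10 μM against 0 μM, 10 μM against FBS, 0 μM against FBS) and -0.15, -0.69 and -0.56 for the same 3 in L-15. The median for 0 μM heme against FBS in Schneider’s medium, 0.02 with TMM, changed sign. It ran from 0.0069 to 0.0331 with single libraries left out, and 10 μM heme against FBS in Schneider’s medium ran from -0.32 to -0.30. The ratio of summed shares in A20 over 0 μM heme was 2.53 for the top 50 genes, 1.77 for the top 200 and 2.09 without the 3 variable genes. Over FBS it was 1.89 without elongation factor 1-alpha, 1.47 for the top 200 and 1.62 without the 3 genes. The median log2 ratios in A20 after TMM were 2.12 and 1.51. Of the 100 members, 99 or 100 were kept by pooled counts, the median share or any single library left out.

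Replicate numbers gave no clear pairing of the samples: deviations of libraries with the same number correlated between -0.04 and 0.13. Over both directions of each pair of groups, a library correlated best with its own number in 10 of 18 cases in A20, 8 of 18 in L-15, 0 of 18 in Schneider’s medium and 0 of 6 at 48 h. In A20 the median correlation was 0.02 for the same number and -0.01 for other numbers, so this check cannot settle a weak pairing there. With the replicate block, the A20 count was 0 and the interaction count 3, and the other counts stayed within 1.5 times. Named members past the threshold without the block but not with it were RpL30 (10 μM against 0 μM heme in L-15, FDR 0.000305), S27 (0 μM heme against FBS in Schneider’s medium, 0.000246), AAEL022334 (0 μM heme against FBS, 0.000175 in A20 and 0.000122 in L-15), and elongation factor 1 gamma and S27 in the interaction (0.000229 and 0.000234). Shares per coding length were not run, since no lengths were used here, and the exact test cannot fit the interaction. Intervals of single shares would cover counting error only: the lowest count of a member in an A20 library with 10 μM heme was 46418.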
